A study of Mus musculus with 16 samples.

Results

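The collagen chain genes are the genes of the array whose symbol is Col, a type number, the letter a and a chain number, and nothing more. The array named 42 such genes among 18193 genes in all, and each gene was followed through 1 probe set, the one with the highest mean over the 16 arrays. Of the 42 genes, 11 encode fibrillar chains, 6 encode the type IV chains of basement membranes and 25 encode other chains. A filter that asked for a signal past each array's 40th percentile on 4 or more arrays left 36 genes for testing. The 6 genes below it were Col6a5, Col10a1, Col11a2, Col17a1, Col19a1 and Col24a1. Col6a6 and Col28a1 were not analysed here.

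Whole adrenal glands of C57BL/6 mouse embryos were measured on Affymetrix Mouse430_2 arrays in 4 groups of 4 arrays. Knockout (KO) embryos carried Sf1-Cre and Dicer lox/lox alleles, and the controls, labelled WT, were littermates without Cre born of the same matings of floxed mice. Both genotypes were taken at E15.5 and E16.5, and each array held the pooled glands of 1 genotype from 1 of 4 litters. Sf1-Cre acts in the steroidogenic lineage, and other cells of the gland, such as those of blood vessels, the nerve-derived medulla and macrophages, are not its known targets.

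Collagens are made of 3 chains wound into a triple helix. Fibrillar collagens assemble into the tension-bearing fibres of connective tissue, whereas type IV collagen forms the sheet-like network of basement membranes. Col4a1 and Col4a2 encode the chains of the network found in nearly all basement membranes, and Col4a3 to Col4a6 encode chains of more restricted networks, known best from kidney, lung, skin and the eye. The 6 type IV genes lie in pairs, Col4a1 with Col4a2, Col4a3 with Col4a4 and Col4a5 with Col4a6, and the genes of a pair are transcribed away from each other from a shared intergenic region. Other collagens coat fibrils, anchor basement membranes to the tissue beneath, form beaded filaments or cross the plasma membrane.

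Dicer cuts microRNA precursors into mature microRNAs, and the miR-29 family is the one best known for acting on collagen messages. Mature microRNAs were not measured on these arrays. The RefSeq sequences (build GRCm38.p6) are shown because the 3 mature family members carry the same seed, bases 2 to 8, printed in capitals, the stretch that pairs with a target.
mmu-miR-29a-3p: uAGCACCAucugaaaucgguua
mmu-miR-29b-3p: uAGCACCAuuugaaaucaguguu
mmu-miR-29c-3p: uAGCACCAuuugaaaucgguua

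Of the 42 collagen genes, 33 had an entry among the 32851 RefSeq promoter entries of build GRCm38.p6. The 250 bases before the start are shown for 3 genes that were lower in KO adrenals, with the letters AGGTCA, the core of the sites bound by SF1 and related nuclear receptors, in capitals. They were searched on both strands. Such a match is a description of letters, not of a bound site.
Col4a4, chr1:82586850-82587099, minus strand: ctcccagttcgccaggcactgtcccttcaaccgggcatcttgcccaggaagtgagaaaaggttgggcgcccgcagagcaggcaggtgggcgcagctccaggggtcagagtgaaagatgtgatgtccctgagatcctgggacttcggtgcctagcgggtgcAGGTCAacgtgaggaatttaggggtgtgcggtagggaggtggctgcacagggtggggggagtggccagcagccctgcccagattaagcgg
Col4a6, chrX:141474077-141474326, minus strand: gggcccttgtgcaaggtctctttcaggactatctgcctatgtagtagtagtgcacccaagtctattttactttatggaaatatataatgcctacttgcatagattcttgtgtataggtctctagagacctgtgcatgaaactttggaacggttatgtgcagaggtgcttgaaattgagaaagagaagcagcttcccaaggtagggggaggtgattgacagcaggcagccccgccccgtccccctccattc
Col23a1, chr11:51289670-51289919, plus strand: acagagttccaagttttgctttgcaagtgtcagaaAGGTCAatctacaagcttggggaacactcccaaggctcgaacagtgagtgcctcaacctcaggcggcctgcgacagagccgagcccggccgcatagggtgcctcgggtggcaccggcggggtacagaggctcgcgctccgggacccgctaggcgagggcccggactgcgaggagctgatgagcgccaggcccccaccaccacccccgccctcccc
The letters began 90 bases before the start of Col4a4 and 215 bases before that of Col23a1, and they were not in the Col4a6 stretch. They stood in 14% of all promoter entries of this length, counted by entry. Counted by gene, with a match in any entry of the gene, they stood in 8 of the 33 collagen genes with an entry. The counts by entry and by gene are unlike units. Of the collagen genes that passed at either stage, 4 had an entry and 3 held the letters, Col4a4 and Col23a1, which fell, and Col7a1, which rose. The annotated start of Col4a3, transcribed the other way, lies inside the stretch printed for Col4a4. The starts of Col4a5 and Col4a6 lie 1343 bases apart in the same table, and those of Col4a1 and Col4a2 lie 21 bases apart.

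Values are log2 signals after RMA, so a difference of 1 is a 2-fold difference. Signals of different genes were not set against each other, but they were added up in the summed levels of marker lists. A summed level is the log2 of the sum of the members' signals off the log scale, so its brightest members weigh most. The kept Dicer1 probe set lay between 8.0 and 8.36 in KO and between 8.50 and 8.64 in control arrays at E15.5. At E16.5 it lay between 8.09 and 8.42 in KO and between 8.45 and 8.83 in control arrays. The sources used here do not say whether this probe set covers the deleted exon. The array means of all probe sets were 6.35 to 6.37 in KO and 6.31 to 6.32 in controls, without overlap. Control E16.5 replicate 2 stood apart in RNA quality, with a 3′ minus 5′ difference of 3.05 for the actin control probe sets against 0.37 to 1.74 on the other 15 arrays, and of 3.25 for GAPDH against -0.05 to 1.5. In a whole gland, fewer cells of a type and less RNA per cell cannot be told apart.

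In KO adrenals, Col4a3, Col4a6 and the membrane-spanning chain Col23a1 were lower than in controls at both stages, and Col4a4 was lower at E15.5. Col26a1 was higher at both, and Col1a1, Col1a2, Col3a1, Col4a1, Col4a2 and Col4a5 did not pass the test. The Col4a3 and Col4a6 calls rested on dim probe sets, and the second probe set of each changed the other way. Col4a3 entered the test through its controls. With the mean of all probe sets, Col4a4 at E15.5 was the only type IV gene to pass. In limma with Benjamini-Hochberg adjustment over the 13644 genes tested, 5 of the 36 tested collagen genes passed an adjusted p of 0.05 at E15.5, where 5.86% of all tested genes passed. One of the 5, Col26a1, rose, and Col4a3, Col4a4, Col4a6 and Col23a1 fell. At E16.5, 6 of the 36 passed, against 10.5% of all tested genes. Col5a2, Col7a1 and Col26a1 rose, and Col4a3, Col4a6 and Col23a1 fell, while 6.99% of all tested genes rose and 3.55% fell. The falls made up most of the collagen calls at E15.5, while over all tested genes 3.69% rose and 2.18% fell at that stage. The E16.5 count dropped to 3 without KO E16.5 replicate 2 and likewise without control E16.5 replicate 3, and it was 7 without control E16.5 replicate 2. It was also 7 without control E15.5 replicate 4 and in a fit of only the 2 groups compared. In each of these 2 fits Col18a1 passed as higher and Col5a3 as lower.

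**Figure D1:**
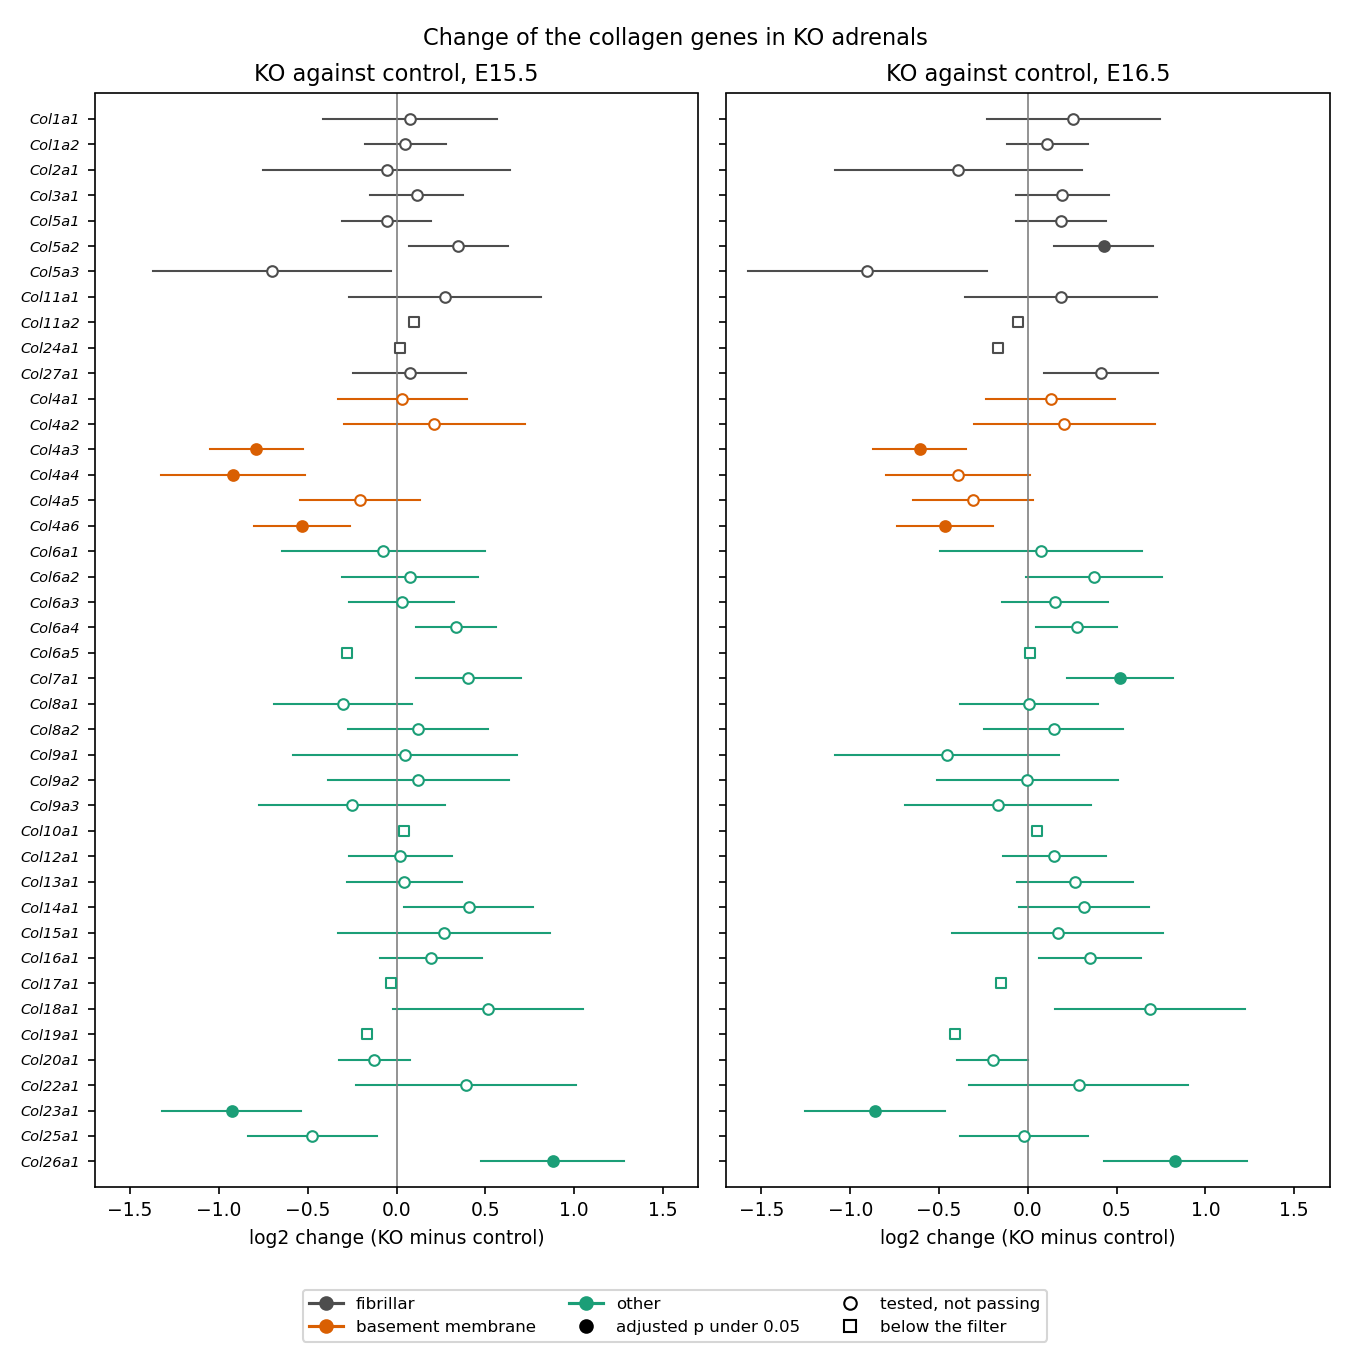
Log2 change of each of the 42 collagen genes, KO minus control, at E15.5 (left) and E16.5 (right), with bars for the 95% confidence interval of the limma fit and colours for the 3 classes. Filled points passed an adjusted p of 0.05 and squares are genes below the filter. Most genes lie near 0. Of the genes that passed at both stages, Col4a3, Col4a6 and Col23a1 lie to the left and Col26a1 to the right. Col5a3, at -0.70 and -0.90, also lies to the left and Col18a1, at 0.52 and 0.69, to the right, and neither passed.

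The class medians over all members of a class differed in sign from one class to another. The type IV genes had a median log2 change of -0.37 at E15.5 and -0.35 at E16.5. The fibrillar genes had medians of 0.07 and 0.19, and the other chains had medians of 0.04 and 0.14. The medians of both these classes at E15.5 turned slightly negative, to -0.0037 and -0.032, when each array was centred on its 75th percentile. Over all tested genes the median was 0.07 at E15.5 and 0.08 at E16.5. The difference between classes was not tested, since chains are not replicates of a condition. Within type IV, the median of Col4a1 and Col4a2 was 0.12 and 0.17, and that of Col4a3 to Col4a6 was -0.66 and -0.43. With the mean of all probe sets of a gene, the median of Col4a3 to Col4a6 was smaller in size, -0.19 and -0.24, and that of all 6 type IV genes was -0.08 and -0.19.

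Fibrillar chains are the bulk of connective tissue collagen. None of the 9 tested fibrillar genes passed at E15.5, and 1, Col5a2, passed at E16.5. Of all tested genes, 5.86% and 10.5% passed at these stages, and 1 of 9 is close to the latter. Col1a1, a chain of type I collagen, had signals of 10.80, 10.20, 10.94 and 11.13 in controls at E15.5 and of 10.82, 10.88, 11.31 and 10.37 in KO. At E16.5 its signals were 10.51, 11.07, 10.58 and 10.53 in controls and 11.46, 10.75, 10.88 and 10.62 in KO. The groups overlapped at both stages, and the log2 changes of 0.08 and 0.26 had 95% confidence intervals of -0.41 to 0.56 and -0.23 to 0.74. The second Col1a1 probe set changed by 0.49 and 0.40, with unadjusted p of 0.350 and 0.448 in limma.

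Col1a2, the partner chain of type I, ran from 13.44 to 13.97 in controls and from 13.66 to 13.91 in KO at E15.5. At E16.5 it ran from 13.64 to 13.86 in controls and from 13.75 to 13.94 in KO. Its changes of 0.05 and 0.11 had intervals of -0.18 to 0.28 and -0.12 to 0.34. Col3a1, the chain of type III collagen found in soft tissues and vessel walls, ran from 13.19 to 13.79 in controls and from 13.50 to 13.78 in KO at E15.5, with a change of 0.11 (interval -0.15 to 0.38). At E16.5 it ran from 13.30 to 13.66 in controls and from 13.61 to 13.88 in KO, with a change of 0.19 (interval -0.07 to 0.45). The groups of both genes overlapped at both stages, and the intervals of the pair reached no farther than 0.45 in either direction. The other Col1a2 probe sets changed by 0.12 and 0.18 and by 0.07 and 0.24. The second Col3a1 probe set changed by -0.11 and -0.05, in the opposite direction.

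Col5a2, a chain of the type V collagen that nucleates type I fibrils, was the fibrillar gene that rose. Its E16.5 signals were 11.47, 11.80, 11.39 and 11.48 in controls and 11.84, 12.15, 12.16 and 11.70 in KO. Of the KO arrays, 1 lay below the highest control, control E16.5 replicate 2. The log2 change was 0.43 ± 0.13 (SE), with an adjusted p of 0.0482 in limma. At E15.5 all KO signals, 11.71 to 11.93, lay above the control signals of 11.21 to 11.68, but the change of 0.35 had an adjusted p of 0.149. The second Col5a2 probe set changed by 0.33 and 0.45. The E16.5 call was lost in 12 of 16 fits that left out 1 array, with adjusted p up to 0.152, and stayed without control E15.5 replicate 2, control E15.5 replicate 3, control E16.5 replicate 2 or KO E16.5 replicate 4. It was also lost under quantile normalization and with arrays centred on the 75th percentile (adjusted p = 0.0681 and 0.157), under a filter at the 60th percentile (0.0557), with the offset between genotypes at dim probe sets allowed for by limma's treat (0.0859) and in a fit of only the 2 groups compared (0.124).

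Among the other fibrillar genes, Col5a3, also a type V chain, had changes of -0.70 and -0.90 with adjusted p of 0.239 and 0.0830. All 4 KO signals at E16.5, 8.11 to 8.34, lay below the controls at 8.91 to 9.45, while at E15.5 the controls spread from 7.75 to 9.76. Col5a3 passed as lower at E16.5 without control E15.5 replicate 4, in a fit of only the 2 groups compared and with array weights. Its dim second probe set changed by -0.20 and -0.07. Col27a1 had a change of 0.41 at E16.5 (adjusted p = 0.0963), and Col2a1, Col5a1 and Col11a1 lay between -0.39 and 0.28 at both stages. Of the 2 fibrillar genes below the filter, Col11a2 changed by 0.10 and -0.06 and Col24a1 by 0.02 and -0.17, with no test.

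Among the type IV genes none rose. Of the 6, 3 fell at E15.5 and 2 at E16.5, where 2.18% and 3.55% of all tested genes fell. All the type IV genes that fell came from the restricted chains Col4a3 to Col4a6. Col4a1 and Col4a2, the widespread chains, differed from the controls by less than the spread between arrays. Col4a1 had signals of 12.81, 12.33, 12.68 and 13.23 in controls and 12.81, 12.67, 13.12 and 12.59 in KO at E15.5. At E16.5 it had 12.50, 12.76, 12.73 and 12.89 in controls and 13.06, 12.55, 12.84 and 12.95 in KO. The changes of 0.03 and 0.13 had intervals of -0.33 to 0.39 and -0.23 to 0.49. The second Col4a1 probe set changed by 0.23 and 0.08.

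Col4a2 ran from 10.53 to 11.90 in controls and from 11.04 to 11.90 in KO at E15.5, and from 10.92 to 11.31 in controls and from 10.97 to 11.55 in KO at E16.5. Its changes were 0.21 at both stages, with intervals of -0.30 to 0.72 and -0.30 to 0.71. The groups overlapped throughout. A fall of Col4a2 as large as that of Col4a3 thus lay outside its interval at each stage.

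**Figure D2:**
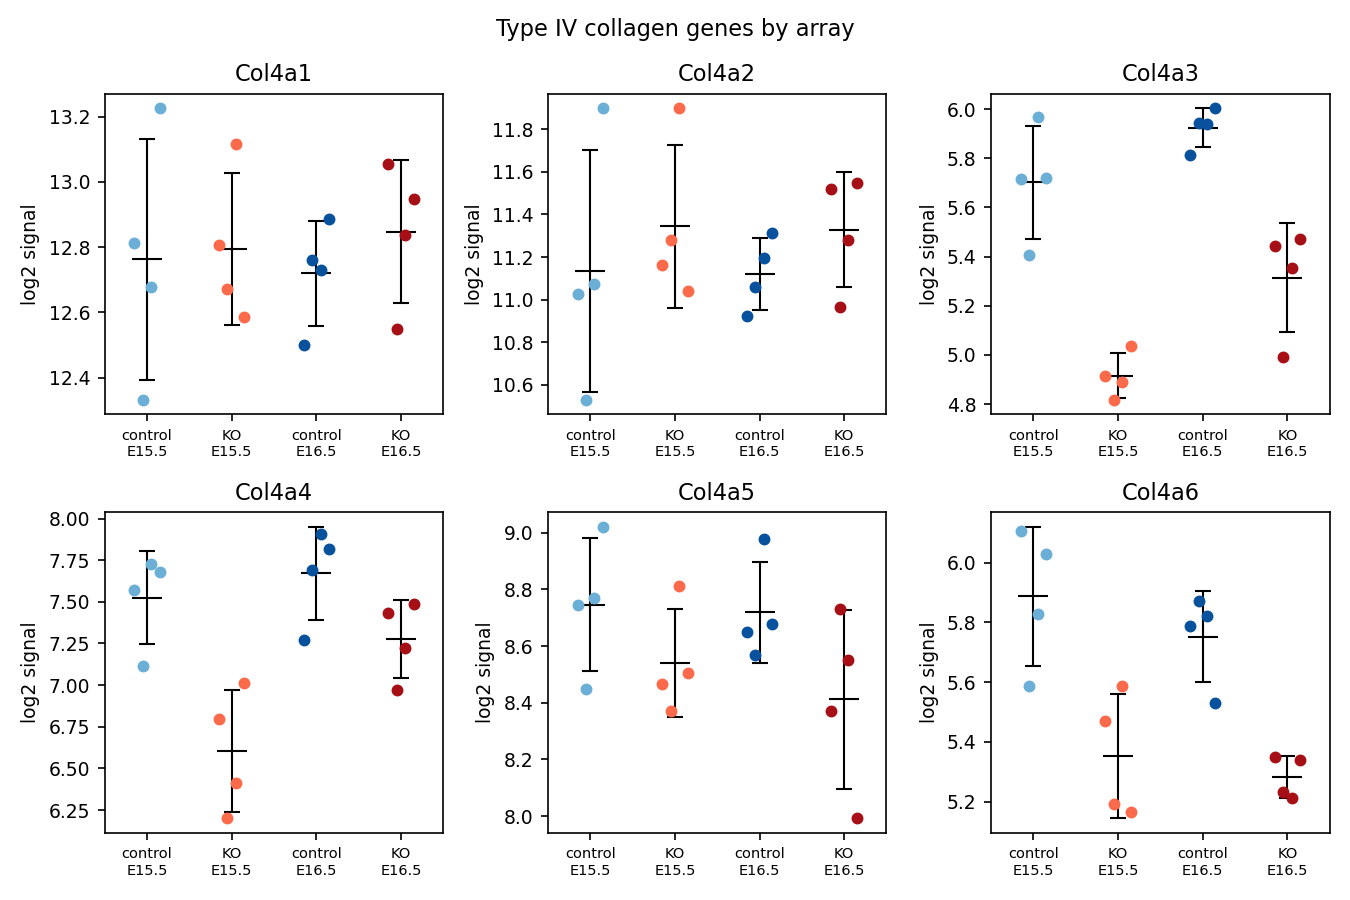
Log2 signals of the 6 type IV collagen genes on each array, with 4 points per group and the mean and SD in black; each panel has its own vertical axis, which does not start at 0. KO points lie below all control points for Col4a3 at both stages, for Col4a4 at E15.5 and for Col4a6 at E16.5, and the groups overlap for Col4a1, Col4a2 and Col4a5.

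Col4a3, a chain of the network known from the glomerulus of the kidney, was the type IV gene with the smallest adjusted p. Its E15.5 signals were 5.72, 5.41, 5.97 and 5.72 in controls and 4.91, 4.82, 4.89 and 5.04 in KO. Its E16.5 signals were 5.81, 5.94, 5.94 and 6.00 in controls and 5.44, 4.99, 5.35 and 5.47 in KO. Every KO signal lay below every control signal of its stage. The log2 change was -0.79 ± 0.12 (SE) at E15.5 with an adjusted p of 0.000849, and -0.61 ± 0.12 (SE) at E16.5 with an adjusted p of 0.00435.

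The Col4a3 call rested on a dim signal. None of the 4 KO arrays at E15.5 and 3 of the 4 at E16.5 were above the filter level, so that the gene entered the test through its controls. Its second probe set, below the filter with a mean signal of 4.41, changed by 0.24 and 0.13, in the opposite direction. With the mean of both probe sets the gene fell below the filter, and no test was made. The call itself stayed in all 16 fits that left out 1 array, at both stages.

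Col4a4, the neighbour and helix partner of Col4a3, had E15.5 signals of 7.57, 7.12, 7.73 and 7.68 in controls and 6.80, 6.20, 6.41 and 7.01 in KO. The groups did not overlap, and the log2 change was -0.92 ± 0.19 (SE) with an adjusted p of 0.00756. At E16.5 its signals were 7.27, 7.69, 7.91 and 7.82 in controls and 7.43, 6.97, 7.22 and 7.48 in KO. These overlapped through the lowest control, and the change of -0.39 had an interval of -0.80 to 0.01 and an adjusted p of 0.224. The difference between the stages, 0.53 with an interval of -0.05 to 1.10, had an adjusted p of 1.00 as a test of its own. The other Col4a4 probe sets changed by -0.71 and -0.42 and by -0.29 and -0.09, all of them downward.

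Col4a6, a chain of basement membranes of smooth muscle and some epithelia, had E15.5 signals of 6.11, 5.59, 5.83 and 6.03 in controls and 5.47, 5.19, 5.59 and 5.17 in KO. The highest KO signal and the lowest control signal were both 5.59 to 2 decimals, and the groups overlapped by that pair. At E16.5 its signals were 5.79, 5.87, 5.82 and 5.53 in controls and 5.35, 5.23, 5.21 and 5.34 in KO, without overlap. The log2 change was -0.53 ± 0.13 (SE) at E15.5 with an adjusted p of 0.0179, and -0.47 ± 0.13 (SE) at E16.5 with an adjusted p of 0.0264.

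The Col4a6 signal was dim too, and its second probe set, below the filter with a mean signal of 4.42, changed by 0.31 and 0.17. With the mean of both probe sets the gene fell below the filter. The E15.5 call was lost without control E15.5 replicate 1 or 4 or KO E15.5 replicate 2 or 4 (adjusted p up to 0.0694), and in a fit of only the 2 groups compared (adjusted p = 0.0562). The E16.5 call was lost without control E16.5 replicate 1, 2 or 3 or KO E16.5 replicate 2, 3 or 4 (adjusted p up to 0.0763).

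Col4a5, the neighbour of Col4a6 and a partner in both restricted networks, had E15.5 signals of 8.75, 8.45, 8.77 and 9.02 in controls and 8.47, 8.37, 8.81 and 8.50 in KO. At E16.5 they were 8.65, 8.57, 8.98 and 8.68 in controls and 8.37, 8.73, 8.55 and 7.99 in KO. The groups overlapped at both stages. The changes of -0.21 and -0.31 had adjusted p of 0.553 and 0.259 and intervals of -0.54 to 0.13 and -0.64 to 0.03. The second Col4a5 probe set changed by 0.12 and -0.16.

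**Figure D3:**
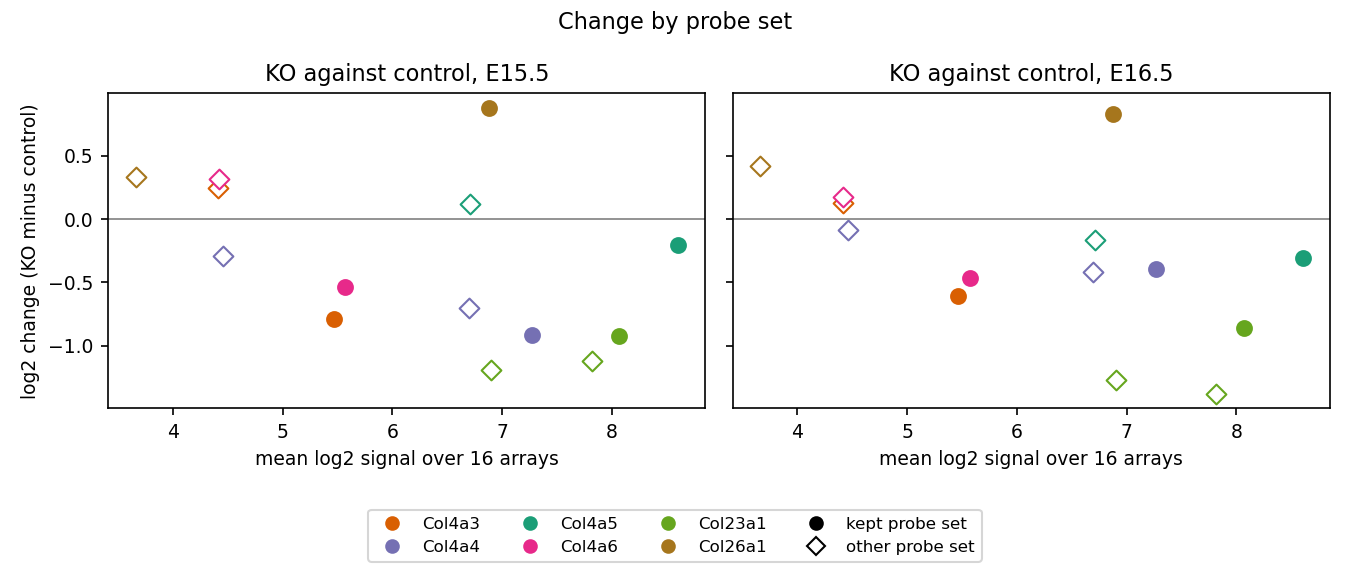
Log2 change, KO minus control, of every probe set of 6 collagen genes against its mean log2 signal over the 16 arrays, at E15.5 (left) and E16.5 (right). Filled circles are the probe sets used and open diamonds the others. The Col23a1 probe sets all lie well below 0, whereas the dim second probe sets of Col4a3 and Col4a6, at mean signals of 4.41 and 4.42, lie above it.

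Of the 21 tested other chains, 2 passed at E15.5 and 3 at E16.5, where 5.86% and 10.5% of all tested genes passed. Col23a1, a membrane-spanning collagen, had the most negative change of the 42 genes at E15.5, close to that of Col4a4. Its signals there were 8.46, 7.96, 8.34 and 8.93 in controls and 7.49, 7.22, 7.94 and 7.32 in KO. At E16.5 they were 8.70, 8.52, 8.78 and 8.42 in controls and 7.86, 7.49, 7.78 and 7.85 in KO. All KO arrays lay below all controls at both stages, though at E15.5 the highest KO and the lowest control array were 7.94 and 7.96.

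The log2 change of Col23a1 was -0.93 ± 0.19 (SE) at E15.5, which is 1.90-fold lower, with an adjusted p of 0.00560. It was -0.86 ± 0.19 (SE) at E16.5, which is 1.82-fold lower, with an adjusted p of 0.00663. The other probe sets of the gene gave -1.19 and -1.28 and gave -1.12 and -1.38. The call stayed in all 16 fits that left out 1 array, with adjusted p up to 0.0248. The other membrane-spanning chains did not pass: Col13a1 changed by 0.04 and 0.27, Col25a1 by -0.47 and -0.02, and Col17a1, below the filter, by -0.03 and -0.15.

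Col26a1 was the collagen gene that rose at both stages. Its E15.5 signals were 6.41, 6.38, 6.79 and 6.69 in controls and 7.13, 7.51, 8.09 and 7.05 in KO. At E16.5 they were 6.52, 6.51, 6.35 and 5.96 in controls and 7.17, 7.25, 7.07 and 7.17 in KO. Every KO array lay above every control array of its stage. The log2 change was 0.88 ± 0.19 (SE), 1.84-fold, at E15.5 with an adjusted p of 0.00996, and 0.83 ± 0.19 (SE), 1.78-fold, at E16.5 with an adjusted p of 0.0102. Its dim second probe set changed by 0.33 and 0.42, and the call stayed in all 16 fits that left out 1 array.

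Col7a1, the chain of the anchoring fibrils that tie a basement membrane to the tissue below, rose at E16.5. Its signals there were 7.65, 7.37, 7.39 and 7.67 in controls and 7.97, 8.30, 7.94 and 7.94 in KO, without overlap. The log2 change was 0.52 ± 0.14 (SE) with an adjusted p of 0.0264. At E15.5 the signals were 7.66, 7.68, 7.31 and 7.09 in controls and 7.89, 8.02, 7.81 and 7.64 in KO, and the change of 0.40 had an adjusted p of 0.112. The E16.5 call was lost without control E16.5 replicate 2 or 3 or KO E16.5 replicate 2 (adjusted p up to 0.0834), under quantile normalization (0.0898) and with arrays centred on the 75th percentile (0.112).

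**Figure D4:**
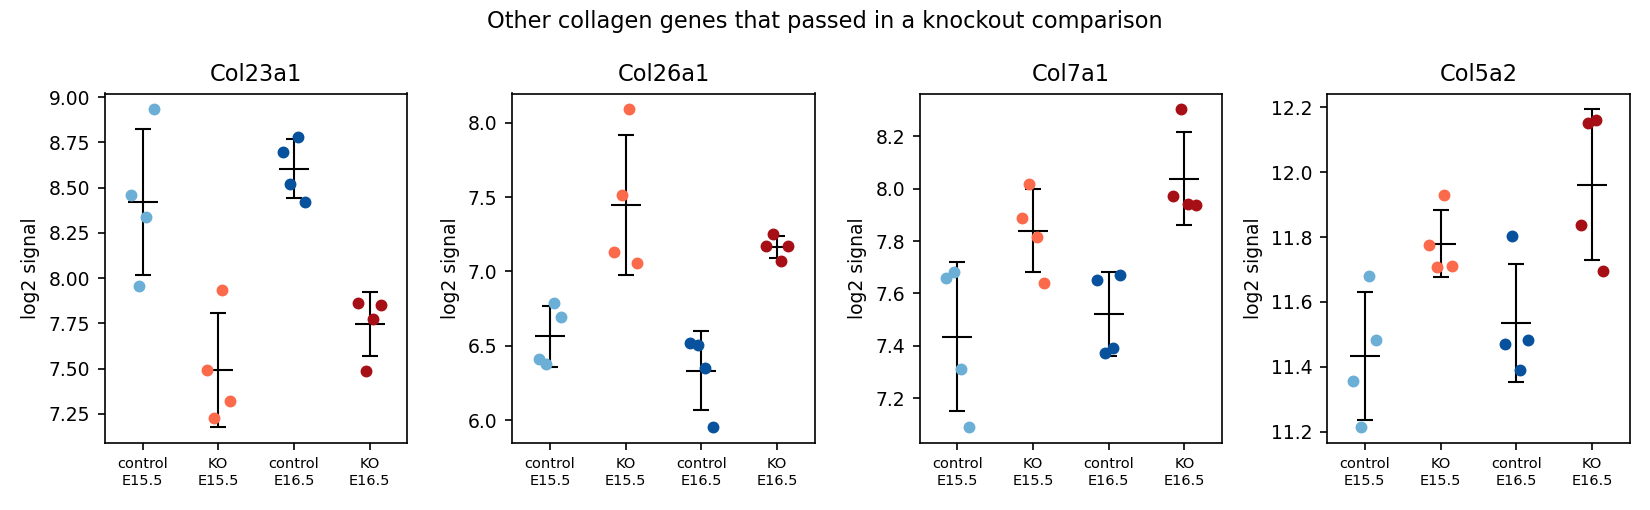
Log2 signals of Col23a1, Col26a1, Col7a1 and Col5a2 on each array, with 4 points per group and the mean and SD in black; each panel has its own vertical axis, which does not start at 0. KO points lie below the controls for Col23a1 and above them for Col26a1 at both stages, while 1 KO point of Col5a2 at E16.5 lies below the highest control.

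The remaining other chains passed at neither stage. Type VI collagen forms beaded filaments around cells: Col6a1, Col6a2 and Col6a3 lay between -0.07 and 0.37, and Col6a4 had changes of 0.34 and 0.27 (adjusted p = 0.0792 and 0.120). Col6a5, below the filter, changed by -0.28 and 0.01 with no test. The fibril-associated chains, which coat fibrils, ranged from -0.25 to 0.41 at E15.5 and from -0.46 to 0.35 at E16.5 over their 9 genes. Col18a1, a basement membrane proteoglycan that is the source of endostatin, had changes of 0.52 and 0.69 (adjusted p = 0.286 and 0.0982), and Col15a1, its relative, 0.27 and 0.17. Col18a1 passed as higher at E16.5 without control E15.5 replicate 4, in a fit of only the 2 groups compared and with array weights. The network chains Col8a1, Col8a2 and Col10a1 lay between -0.30 and 0.14.

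Counting arrays without a test, KO and control signals did not overlap for 6 of the 42 collagen genes at E15.5 and for 9 at E16.5. Over all tested genes the share was 14.5% at E15.5 (9.8% above and 4.7% below the controls) and 15.2% at E16.5 (10.4% above and 4.76% below). At E15.5 Col5a2 and Col26a1 lay above and Col4a3, Col4a4, Col6a5 and Col23a1 below. At E16.5 Col7a1, Col16a1, Col18a1 and Col26a1 lay above and Col4a3, Col4a6, Col5a3, Col19a1 and Col23a1 below. Col6a5 and Col19a1 are among the genes below the filter.

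From E15.5 to E16.5 no collagen gene passed in either genotype, nor did any pass the test of a difference between the KO effects at the 2 stages. Of all tested genes, 0.0953% passed in controls, 0.901% in KO and 0 in the test of the difference. At an unadjusted p of 0.05, limma gave 1 collagen gene in controls, 3 in KO and 0 for the difference, all higher at E16.5. Of all tested genes, 7.85%, 9.51% and 1.89% did so. These were Col14a1 in both genotypes (0.52 in controls and 0.42 in KO), a fibril-associated chain, and Col4a3 (0.40) and Col4a4 (0.67) in KO, with adjusted p of 0.193 and 0.149 for the last pair.

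Within the E15.5 groups, single arrays were high or low for many collagen genes at once. Control E15.5 replicate 2 was the lowest of its group for 26 of the 36 tested genes, against 29.3% of all tested genes, and control E15.5 replicate 4 was the highest for 21, against 33.0%. KO E15.5 replicate 3 was the highest of its group for 21, against 30.2%. Over the 36 genes the median deviation from the group mean was -0.30 on control E15.5 replicate 2, 0.23 on control E15.5 replicate 4 and 0.19 on KO E15.5 replicate 3. The KO E16.5 arrays showed no such order, each being the highest of its group for 6 to 12 of the 36 genes, with median deviations from -0.05 to 0.09. At E15.5 Col1a1, Col1a2, Col3a1, Col4a1 and Col4a2 all followed this order, with control E15.5 replicate 2 the lowest and replicate 4 the highest of the controls and KO E15.5 replicate 3 the highest of the KO arrays.

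Control E16.5 replicate 2 was the highest of all 16 arrays for 6 of the 36 tested genes. They were Col2a1 (6.83), Col8a1, Col9a1 (7.46), Col11a1 (8.15), Col20a1 and Col22a1 (7.97). Of all tested genes, 14.9% had their highest signal on that array. Col2a1, Col9a1 and Col11a1 are chains of cartilage. Of further cartilage chains, Col9a2 (5.50), Col9a3 (6.82) and Col10a1 (4.61) lay within the range of the other 15 arrays. Col11a2, below the filter, had its highest signal there (5.37). The cartilage markers Sox9, Acan, Comp, Hapln1, Epyc, Cnmd, Matn1 and Matn3 lay between 3.53 and 6.86 on it. Of these 8 markers, 3 had their highest signal of all 16 arrays there, Acan at 5.45, Comp at 5.24 and Cnmd at 5.61. The summed level of the 8 was 8.57 on that array and 7.96 to 8.39 on the other 15. By group it was 8.09 to 8.30 in controls and 8.12 to 8.39 in KO at E15.5, then 7.96 to 8.57 and 8.07 to 8.38 at E16.5, and the part of cartilage or of RNA quality in these signals was not tested. Without this array Col13a1, Col22a1 and Col27a1 passed as higher in KO at E16.5, and Col4a6 and Col7a1 did not pass.

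**Figure D5:**
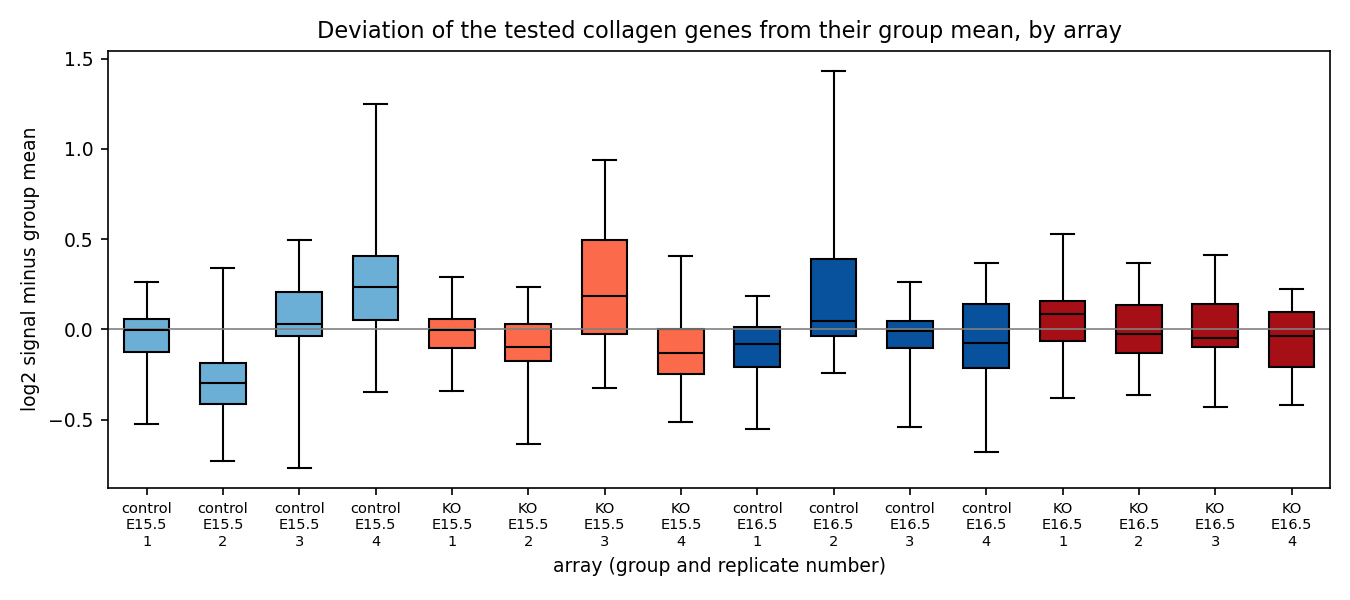
Deviation of the 36 tested collagen genes from their group mean, in log2 signal, on each of the 16 arrays; boxes span the middle of the genes with the median as a line, and whiskers reach the lowest and highest gene. Control E15.5 replicate 2 has a median of -0.30 and control E15.5 replicate 4 of 0.23, and control E16.5 replicate 2 has the gene farthest above its group mean.

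The enzymes and partners of collagen were read from lists of known genes, and each count is to be read against the 5.86% and 10.5% of all tested genes that passed at E15.5 and E16.5. Calls of single list genes were not followed through other normalizations or fits that left out 1 array. Several of their adjusted p lie just under 0.05. Among 17 enzymes of collagen folding and modification, 1 fell at E15.5, and 1 rose and 1 fell at E16.5, which is close to those shares. P4ha3, a catalytic subunit of the prolyl hydroxylase that stabilises the helix, fell by 0.47 and by 0.44 on the log2 scale (adjusted p = 0.0493 and 0.0471), and its relative P4ha2 rose by 0.41 at E16.5 (adjusted p = 0.0288). The list's median was 0.02 and 0.16, and it turned to -0.034 and -0.058 at E15.5 under quantile normalization and under centring.

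Of the 17 tested genes of processing, cross-linking and turnover, 1 fell at E15.5, and 2 rose and 1 fell at E16.5. Pcolce, which speeds the removal of the C-terminal propeptide from fibrillar procollagens, had E15.5 signals of 13.04, 12.80, 12.96 and 13.11 in controls and 12.38, 12.13, 12.25 and 12.43 in KO. At E16.5 it had 13.13, 13.41, 13.29 and 13.21 in controls and 12.87, 12.59, 12.66 and 12.70 in KO. KO lay below the controls on all arrays of both stages, with changes of -0.68 ± 0.10 (SE) and -0.55 ± 0.10 (SE), both past the threshold in limma. At E16.5 Pxdn, which forms the sulfilimine cross-links of type IV collagen, rose by 0.39 (adjusted p = 0.0434), and Mrc2, a receptor that takes up collagen for breakdown, rose by 0.56 (adjusted p = 0.0157).

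Of 13 tested other basement membrane genes, the laminin chain Lama5 fell by 0.39 at E16.5 (adjusted p = 0.0488), and none passed at E15.5. Of 6 tested collagen receptors, the integrin chain Itga2 fell at E15.5. Its signals were 7.23, 7.0, 7.35 and 7.79 in controls and 6.49, 6.29, 6.35 and 6.24 in KO, a change of -1.0 ± 0.23 (SE) with an adjusted p of 0.0131. At E16.5 Itga2 was at 5.96 to 7.09 in KO and at 6.73 to 7.48 in controls. None of the 16 collagen-associated matrix genes passed at either stage, where an unadjusted p of 0.05 in limma took 1 and 2 of them, and 19% and 24% of all tested genes. None of 9 reported miR-29 targets outside the collagens passed, with 0 at an unadjusted p of 0.05 and medians of 0.12 and 0.05, the latter turning negative under quantile normalization and centring.

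Marker lists of several cell types differed between genotypes beside these results. Over all tested genes, 2.18% fell and 3.69% rose at E15.5, and 3.55% fell and 6.99% rose at E16.5. Of 8 cortex markers, 2 fell at E15.5 and 4 at E16.5. At each stage 2 of the 8 had positive changes, up to 0.56 at E15.5 and 0.19 at E16.5. The summed level of the 8 was 16.04 to 16.43 in controls and 15.79 to 16.12 in KO at E15.5. At E16.5 it was 16.18 to 16.41 in controls and 15.58 to 16.01 in KO. Of 10 macrophage markers, 5 rose at E15.5 and all 10 at E16.5, with summed levels of 11.67 to 12.08 in controls and 12.69 to 12.90 in KO at E15.5, then 11.98 to 12.39 and 13.19 to 13.57. Of 7 chromaffin markers, 0 and 3 rose, with summed levels of 13.87 to 14.31 against 14.41 to 14.61 at E15.5 and 13.92 to 14.49 against 14.65 to 15.02 at E16.5. The part of these cell types in the collagen changes was not tested.

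Capsule, mesenchyme and vessels are main sources of collagen in the gland. Of 12 capsule and mesenchyme markers none passed at either stage, with 1 at an unadjusted p of 0.05 at each stage in limma, and summed levels were 13.25 to 13.61 in controls and 13.36 to 13.80 in KO at E15.5, then 13.09 to 13.48 and 13.33 to 13.92. Of 12 endothelial markers none passed, with 0 and 3 at an unadjusted p of 0.05 and summed levels of 12.59 to 12.91 and 12.62 to 13.21, then 12.33 to 12.72 and 12.58 to 12.98. The median log2 change was 0.11 and 0.22 for the capsule and mesenchyme markers and 0.17 and 0.24 for the endothelial ones. In the first list 7 and 12 of the 12 were higher in KO, and in the second 11 and 12. Of all 18193 genes, 11680 and 11455 were higher. With arrays centred on the 75th percentile the medians were 0.03 and 0.13, and 0.09 and 0.15. Of 9 tested pericyte and smooth muscle markers, Kcnj8 rose at E16.5, and of 4 Schwann lineage markers, Erbb3 did. The share of all tested genes that rose was 3.69% at E15.5 and 6.99% at E16.5. Of 7 kidney markers on the array, 3 passed the filter, and 1, Cited1, rose at both stages (2.08 and 1.42), while Pax8, Lhx1, Sall1 and Umod were below the filter. The summed level of all 7 kidney markers, Cited1 among them, was 7.70 to 7.76 in controls and 8.27 to 8.80 in KO at E15.5. At E16.5 it was 7.55 to 7.94 in controls and 7.91 to 8.41 in KO. The median log2 change of the 7 was only 0.15 and 0.10, and 2 and 3 of them had negative changes. The part of each list in the collagen values was not tested.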

How the data were processed

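The authors deposited normalized log2 signals of 45101 probe sets from 16 arrays, made with RMA as named in the submitters' processing notes, where limma is listed too; versions and the number of normalization runs are not given in the sources used here. RMA compresses dim signals, so changes near the floor are understated. Gene names came from the platform annotation: 34945 probe sets had 1 symbol, 932 several and 9160 none, and symbols were updated through the RefSeq gene table. The signals were used without further normalization. Each gene was read from its brightest probe set by the mean of all 16 arrays, and was tested where 4 or more arrays exceeded their own 40th percentile.

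Group means of all 4 groups were fitted with limma 3.58.1 in R 4.3.3 (lmFit, eBayes), with Benjamini-Hochberg adjustment over 13644 genes and a threshold of 0.05. Every p is two-sided. The number of arrays limits the precision. Data were simulated for KO against control at E15.5 over 13644 genes, with independent noise for each gene and 100 genes changed by each size. On the log2 scale, 34% of genes changed by 0.5 and 86% of genes changed by 1 were called, with 5 false calls. In the real comparison more genes passed (800) and arrays deviated together over many collagen genes, so these shares are a rough guide. Pools came from separate litters, so the spread includes litters.

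The collagen genes and all lists were chosen with earlier results of these data known. Full values are given for collagen genes that passed in any comparison, for Col1a1, Col1a2, Col3a1, Col4a1 and Col4a2, and for the gene paired with a type IV gene that passed; of each list the passing members could be named, up to 4. Marker lists covered cortex, capsule and mesenchyme, endothelium, pericytes and smooth muscle, chromaffin cells, Schwann lineage, macrophages, cartilage and kidney. Of 8 cartilage markers, 4 were tested and none passed; at an unadjusted p of 0.05 limma gave 0 at both stages. Alternatives changed the normalization, the filter, the probe set, the array weights, the samples in the fit (only the 2 groups compared), the minimum change (limma's treat, with the offset between genotypes at dim probe sets), the replicate block and each array in turn.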

Additional observations from a re-analysis of the deposited data

Results flagged for a closer look

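In 168 sets of 4 arrays (42 genes in 4 groups), 11 held an array far from the other 3 by Dixon's criterion for the gap against the range; chance gives about 1 in 20. On control E16.5 replicate 2, Col1a1 was at 11.07, Col2a1 at 6.83 and Col22a1 at 7.97, each the highest of its group, on the array with the largest 3′ minus 5′ differences. On KO E16.5 replicate 2, Col18a1 was low at 10.66 and Col7a1 high at 8.30. On KO E16.5 replicate 1, Col13a1 was at 9.02 and Col6a4 at 5.32. On KO E15.5 replicate 3, Col8a2 was at 9.97 and Col11a2 at 4.71. Col6a5 was at 3.34 on KO E16.5 replicate 4, and Col9a2 was at 5.10 on control E15.5 replicate 2.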

How the results depend on the processing

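The counts of collagen genes passing were 5 at E15.5 and 6 at E16.5. They fell to 3 at both stages under a filter at the 60th percentile, which removed Col4a3 and Col4a6 from the test, and to 3 at E15.5 with the mean of all probe sets. The type IV medians were then -0.087 and -0.090 under that filter and -0.078 at E15.5 with the mean of all probe sets. With array weights the E16.5 count was 18 (11 higher and 7 lower, among them Col4a4 and Col4a5), and the comparisons of stages gave 2 genes in controls and 2 in KO; control E16.5 replicate 2 had a weight of 0.193 and control E16.5 replicate 3 one of 10.4. Under quantile normalization and under centring, the E16.5 split was 1 higher and 3 lower, in place of 3 and 3. Leaving out 1 array at a time gave counts of 4 to 6 at E15.5 and 3 to 7 at E16.5. The labels do not say that a replicate number marks a litter, and same-numbered KO and control arrays did not all deviate together (correlations from -0.39 to 0.45), so the numbers were not used as pairs; with the replicate block the counts were 5 and 6 for KO against control and 0 in the other comparisons. No collagen gene that passed changed direction in an alternative that tested it. Col1a1, Col1a2 and Col4a1, which did not pass, turned to -0.0011, -0.028 and -0.044 at E15.5 under centring. The class medians use all genes on the array, so removing the filter leaves them as they are. Over the genes that passed it alone, an alternative chosen after seeing the data, none moved by more than the spread between replicates. The type IV medians could not move there, since all 6 genes passed the filter. For the fibrillar genes that spread was 0.42, wider than their medians of 0.07 and 0.19, so the check was a loose one. For the cases above the cause was not tested beyond the genes that the construction removes. Dim signals, as of Col4a3 and Col4a6, limit what their probe sets can show.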
